A study of Homo sapiens with 4 samples.

Results

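The genes described here encode 10 subunits of the condensin I and cohesin complexes, chosen by gene symbol from the 58870 genes listed in each deposited table. Condensin I was represented by SMC2, SMC4, NCAPD2, NCAPG and NCAPH, and cohesin by SMC1A, SMC3, RAD21, STAG1 and STAG2. RNA was sequenced from BJ cells, a line of human foreskin fibroblasts, in 4 libraries. In the 2 Dox libraries, titled AGEDDox, cells had received 250 nM of an agent that the labels abbreviate as Dox for 24 hours and then, by the design text, had 10 days in which to senesce, although the treatment protocol can also be read as placing the 10 days first. The 2 DMSO libraries, titled YOUNG CONTROL, received the solvent DMSO over the same schedule. All of the cells come from 1 line. The labels do not tell separate cultures from repeated libraries of 1 culture, and the p-values below therefore reflect the variation among these 4 libraries, which may be technical.

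Condensin and cohesin are ring-shaped ATPases. In each, a pair of SMC proteins forms the long arms and the ATPase heads, a kleisin closes the ring, and HEAT-repeat proteins bind the kleisin. Condensin folds chromatin into compact mitotic chromosomes, and condensin I reaches the chromosomes once the nuclear envelope has broken down. Cohesin holds sister chromatids together until anaphase, and in interphase it also extrudes chromatin loops, so that it is used by cells that no longer divide as well as by dividing cells. Transcription of many genes of late cell cycle depends on a promoter element named the cell cycle genes homology region (CHR), often together with CCAAT boxes, while E2F sites are typical of genes of the G1/S transition.

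Promoters are shown for the condensin I genes that were lower in the Dox libraries, NCAPG, NCAPH and NCAPD2, and for SMC4, which did not pass the test. Each is the 250 bases before the RefSeq start (GRCh38.p14, gene strand, here always plus), with matches to the CHR (TTTGAA or TTCGAA), the CCAAT box (CCAAT) and the E2F core (TTCCCGC or TTGGCGC or TTCGCGC or TTGCCGC) in capitals on either strand.
NCAPG, chr4:17810729-17810978: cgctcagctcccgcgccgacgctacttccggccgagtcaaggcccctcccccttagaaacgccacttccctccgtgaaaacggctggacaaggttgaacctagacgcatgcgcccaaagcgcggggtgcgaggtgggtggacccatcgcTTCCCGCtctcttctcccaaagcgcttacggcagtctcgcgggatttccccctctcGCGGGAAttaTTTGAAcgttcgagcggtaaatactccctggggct
NCAPH, chr2:96335516-96335765: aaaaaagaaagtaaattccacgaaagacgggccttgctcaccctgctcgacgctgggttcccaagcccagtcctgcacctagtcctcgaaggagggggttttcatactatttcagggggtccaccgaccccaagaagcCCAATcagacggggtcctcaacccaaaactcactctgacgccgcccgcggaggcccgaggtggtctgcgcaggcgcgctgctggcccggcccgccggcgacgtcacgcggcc
NCAPD2, chr12:6493852-6494101: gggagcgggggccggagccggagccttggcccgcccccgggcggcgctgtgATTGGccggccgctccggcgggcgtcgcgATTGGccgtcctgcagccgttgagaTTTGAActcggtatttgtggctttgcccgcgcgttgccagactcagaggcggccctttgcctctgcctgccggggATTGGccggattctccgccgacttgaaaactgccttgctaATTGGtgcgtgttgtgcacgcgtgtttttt
SMC4, chr3:160399400-160399649: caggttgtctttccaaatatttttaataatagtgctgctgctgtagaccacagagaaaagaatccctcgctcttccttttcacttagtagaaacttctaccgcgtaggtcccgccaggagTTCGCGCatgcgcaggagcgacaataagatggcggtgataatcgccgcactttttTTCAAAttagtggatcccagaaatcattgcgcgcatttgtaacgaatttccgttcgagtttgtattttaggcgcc

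The NCAPG promoter held a CHR at -35 and E2F cores at -101 and -45, counted from the start to the first base of the match. That of NCAPD2 held a CHR at -145 and 4 CCAAT boxes in reverse orientation, at -199, -170, -70 and -30. That of NCAPH held a single CCAAT box, at -112, and neither other motif. That of SMC4 held a CHR at -75 and an E2F core at -130. In the window from 250 bases before to 50 after the start, a CHR occurred in 4 of 5 condensin I and 1 of 4 cohesin promoters, against 16.6% of 27305 RefSeq promoters of the same length. A CCAAT box occurred in 2 of 5 condensin I and 2 of 4 cohesin promoters, against 35.7%, and an E2F core in 2 of 5 and 1 of 4, against 13.1%. A match to so few letters is a description of the sequence and not a binding site. RefSeq entries were found for 9 members, the exception being RAD21. The members with a CHR were SMC2, SMC4, NCAPD2, NCAPG and SMC3, of which SMC2, SMC4 and SMC3 were not called lower.

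The libraries were of like depth, with expected counts of 42880682 and 43429426 in the Dox and 42744729 and 47798920 in the DMSO libraries. The pair of small RNA genes RN7SL1 and RN7SL2 took 33.0 and 42.3% of TPM in the Dox and 43.9 and 43.8% in the DMSO libraries, and protein-coding genes took only 9.11 and 14.9% of TPM against 10.4 and 10.8%. TPM (a level per length, scaled to a fixed total in each library) of every protein-coding gene was therefore scaled differently in the 2 Dox libraries, and levels are compared between genes below after rescaling TPM to an equal total over protein-coding genes. The difference between the Dox libraries tracked the GC content of the transcripts, with a Spearman rho of -0.598 across genes, against -0.0239 between the DMSO libraries, where genes are not independent replicates. Mitochondrial genes took 1.08 and 0.584% of counts in the Dox and 0.292 and 0.296% in the DMSO libraries. The 10 fibroblast markers summed to 20728 and 25363 CPM in the Dox and 28682 and 28255 CPM in the DMSO libraries, and none was under 1 CPM. The collagens carried that sum, and the other markers were mixed. DCN, LUM, THY1 and S100A4 were higher in both Dox libraries, LUM for instance at 1985 and 1810 CPM against 1406 and 1406 CPM. PDGFRA was lower in both, at 93.4 and 93.1 CPM in the Dox and 173.8 and 169.6 CPM in the DMSO libraries. PDGFRB was also lower, at 203.3 and 246.7 CPM against 470.0 and 462.4 CPM, and FAP overlapped between the groups. Of the keratinocyte, endothelial, melanocyte and immune markers, 3 of 4, 3 of 3, 3 of 3 and 2 of 4 stayed under 1 CPM in all libraries. The immune markers summed to 26 and 28 CPM in the Dox and 6.25 and 5.82 CPM in the DMSO libraries. Most of that was CD68, a lysosomal protein that is not limited to immune cells, with 1023 and 1186 counts in the Dox and 251 and 261 in the DMSO libraries. The leukocyte marker PTPRC had 90 and 83 counts in the Dox and 9 and 11 in the DMSO libraries, while CD3E was at 0 in all 4. The part of these differences, and of that in mitochondrial counts, in the results below was not tested.

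Within condensin I, the 3 non-SMC subunits were lower in the Dox libraries and the SMC pair did not pass the test. NCAPH and NCAPG fell to 33.2 and 39.4% of their DMSO level, and NCAPD2 to 76.7%. Within cohesin, the kleisin RAD21 fell to 53.6% and STAG1 to 81.2%, while SMC1A, SMC3 and STAG2 did not pass. Thus 3 of 5 condensin I and 2 of 5 cohesin subunits were called lower and 0 higher by edgeR's quasi-likelihood test, where 13.8% of the 16749 genes tested were called lower, 16.5% higher and 30.3% in either direction. The groups did not overlap in CPM, with Dox lower, for 6 members (34.5% of tested genes) and, with Dox higher, for 1 member, SMC2 (34.6% of tested genes). All 10 genes passed the filter on low counts. The kleisin was the subunit with the lowest fold change in both complexes. In bulk RNA, fewer dividing cells and less RNA per cell cannot be told apart. Each fit that left out 1 library took its spread from the pair left in the other group, and the lone library was assumed to vary alike. Over all genes, 2764 were called higher with all libraries. More were called higher without a Dox library and fewer without a DMSO library. Calls gained or lost in such fits therefore stand below with the fold change, and not all of them are given.

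**Figure D1:**
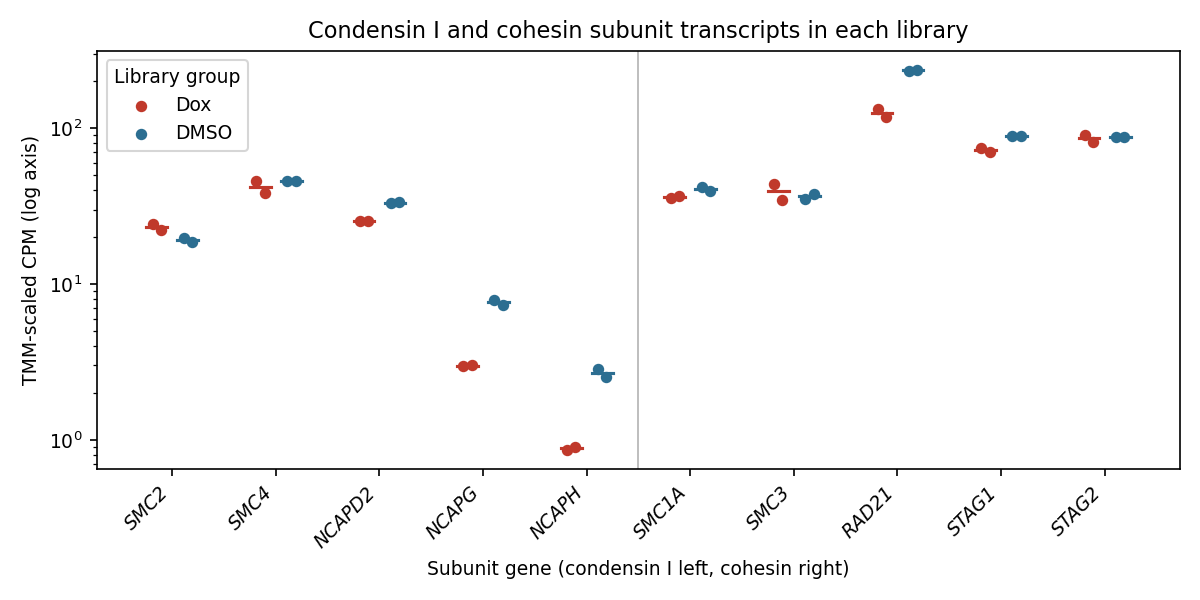
Level of each subunit transcript in TMM-scaled CPM (counts relative to library size, log axis) in single libraries, Dox to the left of DMSO, with bars at the group means (n = 2). NCAPG, NCAPH and RAD21 stand clearly apart between the groups, at means of 3.00, 0.885 and 125.7 CPM in Dox against 7.61, 2.67 and 234.4 CPM in DMSO libraries, while the points of SMC4, SMC3 and STAG2 overlap.

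The kleisin NCAPH (ENSG00000121152, chromosome 2, 96335787 to 96373845 in GRCh38) was covered by 37 and 41 counts in Dox cells, against 118 and 118 in DMSO cells. Both Dox libraries lay far below both DMSO libraries. The log2 fold change was -1.59 (SE 0.19, edgeR adjusted p = 0.00207), and 1.34% of all tested genes had a fold change at or below it. NCAPG (ENSG00000109805, chromosome 4, 17810902 to 17844862), a HEAT-repeat subunit that binds NCAPH and DNA, had 128 and 136 counts in the Dox libraries against 330 and 343 in the DMSO libraries. The Dox pair was nearly identical after scaling, at 2.99 and 3.00 CPM, against 7.91 and 7.32 CPM in the DMSO pair. The log2 fold change of NCAPG was -1.34 (SE 0.13, edgeR adjusted p = 0.00103), and 2.12% of tested genes were at or below it. Over the 4 libraries the centred log2 CPM of NCAPG stood closer to NCAPH than to any other member (Euclidean distance 0.221, rank 91 of 16748 genes), with RAD21 next among the members (0.457, rank 424).

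NCAPD2 (ENSG00000010292, chromosome 12, 6493356 to 6531955), the other HEAT-repeat subunit, was at 25.5 and 25.4 CPM in the Dox libraries and at 33.0 and 33.4 CPM in the DMSO libraries. The groups did not overlap, but the difference was much smaller than for NCAPG and NCAPH, with a log2 fold change of -0.38 (SE 0.08, edgeR adjusted p = 0.0122). The NCAPD2 fold change was -0.40 without DMSO replicate 1 and -0.38 without DMSO replicate 2, but with the spread from the Dox pair alone it was not called (edgeR adjusted p = 0.165 and 0.207), within a range of 3.98e-10 to 1 over 15 alternatives. NCAPG and NCAPH passed without any single library, and lost the call on TPM as deposited, as described below.

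SMC2 (ENSG00000136824, chromosome 9, 104094260 to 104141417) and SMC4 (ENSG00000113810, chromosome 3, 160399274 to 160434962) form the ATPase arms of both condensin I and condensin II. SMC2 was at 24.2 and 22.1 CPM in the Dox and 19.8 and 18.7 CPM in the DMSO libraries. The Dox libraries were the higher ones without overlap, in the direction opposite to NCAPG and NCAPH, with a log2 fold change of 0.26 (SE 0.09) that did not pass (edgeR adjusted p = 0.072). It passed with an offset for the GC trend (0.19, edgeR adjusted p = 0.0413). With the spread from the DMSO pair alone, it also passed for either Dox library by itself, at 0.19 without Dox replicate 1 (edgeR adjusted p = 0.0141) and 0.33 without Dox replicate 2 (3.78e-06), which holds no spread between Dox libraries. SMC4 was at 45.6 and 38.5 CPM in the Dox and 45.8 and 45.5 CPM in the DMSO libraries. Dox replicate 1 lay within the DMSO range of SMC4 and Dox replicate 2 below it (log2 fold change -0.12, SE 0.10, edgeR adjusted p = 0.398). Leaving out Dox replicate 1 put the log2 fold change of SMC4 at -0.26, and leaving out Dox replicate 2 put it at -0.00. The value of -0.26 passed (edgeR adjusted p = 2.98e-06), but it set a single Dox library against the DMSO pair, which alone gave the spread. SMC4 was also called with the GC offset (-0.17, edgeR adjusted p = 0.0183).

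In cohesin, RAD21 (ENSG00000164754, chromosome 8, 116845935 to 116874866), the kleisin that separase cuts at anaphase, was at 132.8 and 118.6 CPM in the Dox libraries. It was at 232.0 and 236.7 CPM in the DMSO libraries. The groups were far apart relative to the spread within each, with a log2 fold change of -0.90 (SE 0.08, edgeR adjusted p = 0.000878), and 4.76% of tested genes were at or below it. The fall held without each library in turn, at log2 fold changes of -1.0 without Dox replicate 1 and -0.82 without Dox replicate 2, -0.92 without DMSO replicate 1 and -0.89 without DMSO replicate 2.

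STAG1 and STAG2 are alternative HEAT-repeat subunits, of which a cohesin ring carries 1. STAG1 (ENSG00000118007, chromosome 3, 136336233 to 136752403) was at 74.5 and 70.0 CPM in the Dox and 88.8 and 89.0 CPM in the DMSO libraries. The groups of STAG1 did not overlap, and its log2 fold change was -0.30 (SE 0.07, edgeR adjusted p = 0.0258). The STAG1 fold change was -0.31 without DMSO replicate 1 and -0.30 without DMSO replicate 2, though with the spread from the Dox pair alone it was not called (edgeR adjusted p = 0.291 and 0.32), within a range of 2.01e-16 to 1 over 15 alternatives. STAG2 (ENSG00000101972, chromosome X, 123960212 to 124422664) was at 90.4 and 81.5 CPM in the Dox and 87.6 and 87.6 CPM in the DMSO libraries. Its Dox libraries lay on either side of the DMSO pair, and its log2 fold change of -0.03 (SE 0.08, edgeR adjusted p = 0.826) changed sign on TPM scales, at 0.13 on log2(TPM + 1), and without Dox replicate 2, at 0.04. Without Dox replicate 1 STAG2 was at -0.12 and was called lower, with the spread from the DMSO pair alone (edgeR adjusted p = 0.0101).

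The cohesin ATPases SMC1A and SMC3 did not pass. SMC1A (ENSG00000072501, chromosome X, 53374149 to 53422728) was at 35.8 and 36.8 CPM in the Dox and 41.6 and 39.5 CPM in the DMSO libraries (log2 fold change -0.16, SE 0.07, edgeR adjusted p = 0.156). Its groups did not overlap, as was so for 69.1% of all tested genes, and leaving out Dox replicate 1 or 2 put its fold change at -0.15 or -0.18. These values passed (edgeR adjusted p = 0.01 and 0.00293) with a single Dox library and the spread from the DMSO pair alone, so they hold no Dox spread. SMC3 (ENSG00000108055, chromosome 10, 110567691 to 110604636) was at 43.9 and 34.8 CPM in the Dox and 35.3 and 37.5 CPM in the DMSO libraries. Its Dox libraries lay above and below the DMSO pair (log2 fold change 0.11, SE 0.12, edgeR adjusted p = 0.521). The value depended on which Dox library was used, at -0.08 without Dox replicate 1 and 0.27 without Dox replicate 2. The value of 0.27 was called (edgeR adjusted p = 2.89e-06), with the spread from the DMSO pair alone.

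On the per-length scale of TPM over protein-coding genes, RAD21 was the most abundant member and NCAPH the least in every library. RAD21 was at 109.8 and 94.9 TPM in the Dox and 199.8 and 204.8 TPM in the DMSO libraries. STAG2 followed at 49.8 and 46.4 TPM in the Dox and 47.3 and 47.7 TPM in the DMSO libraries, then STAG1 at 41.3 and 36.2 TPM against 46.0 and 46.8 TPM, and SMC4 at 35.9 and 29.3 TPM against 36.0 and 37.5 TPM. NCAPD2 and SMC3 stood next, at 29.3 and 29.1 TPM and at 30.4 and 23.6 TPM in the Dox libraries, where they changed places between the libraries, and at 33.9 and 35.5 TPM and 24.3 and 25.4 TPM in the DMSO libraries, where they did not. SMC1A and SMC2 were at 12.1 and 12.1 TPM and 12.6 and 11.1 TPM in the Dox libraries, within their spread of each other, while in the DMSO libraries SMC1A, at 15.3 and 14.9 TPM, was above SMC2, at 9.97 and 9.23 TPM. NCAPG was at 2.20 and 2.68 TPM in the Dox and 6.42 and 5.26 TPM in the DMSO libraries.

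All 10 members were listed at a higher deposited TPM in Dox replicate 2 than in Dox replicate 1, whatever their counts. NCAPD2, for instance, had 2.67 and 4.34 TPM in the Dox libraries on 1090 and 1152 counts, with effective lengths of 2351 and 2321 bases. For NCAPG most of the gap went with that scaling, since after rescaling over protein-coding genes it was at 2.20 and 2.68 TPM. For NCAPH a gap of 0.878 and 1.67 TPM remained. NCAPH was listed at 0.08 and 0.25 TPM in the Dox libraries, against 0.29 and 0.27 TPM in the DMSO libraries. Its counts of 37 and 41 in the Dox libraries differed little, but the effective length that RSEM assigned to the gene was 2759 bases in Dox replicate 1 and 1459 bases in Dox replicate 2, against 2709 and 2667 bases in the DMSO libraries. NCAPG was listed at 0.20 and 0.40 TPM in the Dox and 0.67 and 0.57 TPM in the DMSO libraries, with effective lengths of 3733 and 2962 bases against 3297 and 3694 bases. The effective length of a gene is a mean over its transcripts, weighted by their estimated shares in that library, and rests here on few reads. By limma on log2(TPM + 1) of TPM as deposited, none of the 10 members passed, with RAD21 at -0.80 (adjusted p = 0.43), NCAPG at -0.32 (adjusted p = 0.126) and NCAPH at -0.14 (adjusted p = 0.353). By limma on the same scale after rescaling over protein-coding genes, RAD21 at -0.98 (adjusted p = 0.00103), NCAPG at -0.99 (adjusted p = 0.00643) and NCAPH at -0.70 (adjusted p = 0.0414) passed, and NCAPD2 and STAG1 did not.

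**Figure D2:**
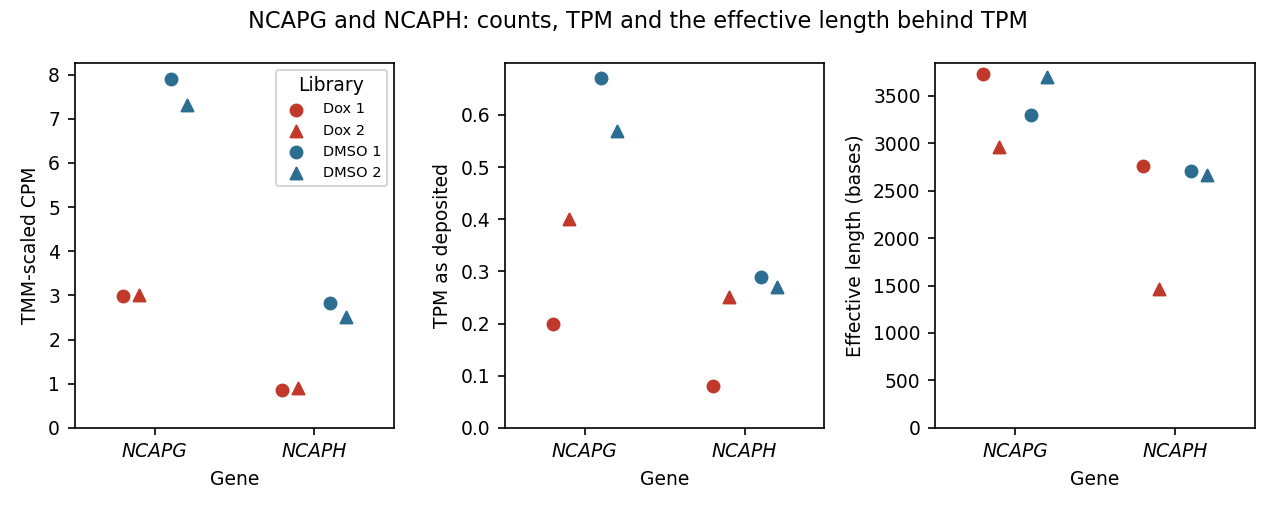
NCAPG and NCAPH in each library as TMM-scaled CPM (left), TPM as deposited (middle) and RSEM effective length in bases (right), with Dox left of DMSO, circles for replicate 1 and triangles for replicate 2. The Dox libraries coincide in CPM but not in TPM, and for NCAPH the effective length in Dox replicate 2, 1459 bases, stands below the other 3 libraries, at 2667 to 2759 bases.

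Condensin I and cohesin were also set against each other. The deposited TPM of the 5 condensin I subunits summed to 7.37 and 11.0 in the Dox and 9.30 and 9.75 in the DMSO libraries. That of the 5 cohesin subunits was 22.2 and 31.8 against 34.7 and 36.8. After rescaling over protein-coding genes, the condensin I sums were 80.9 and 73.8 TPM against 89.1 and 90 TPM. The cohesin sums were then 243.3 and 213.1 TPM against 332.7 and 339.5 TPM. Neither rescaled sum overlapped between the groups, and the ratio of the sums is the same on both scales. The log2 ratio of condensin I to cohesin was -1.59 and -1.53 in the Dox libraries, against -1.90 and -1.92 in the DMSO libraries, a difference of 0.35 in means. The ratio was thus higher in both Dox libraries, although the subunits with the largest falls, NCAPH and NCAPG, belong to condensin I. RAD21 alone made up 45.1 and 44.5% of cohesin TPM in the Dox and 60.0 and 60.3% in the DMSO libraries. With RAD21 left out of the cohesin sum, an alternative chosen after its share was seen, the difference in log2 ratio was -0.12. Geometric means weight each subunit equally. By them the log2 ratio was -2.33 and -2.01 in the Dox and -1.91 and -2.01 in the DMSO libraries. The difference was -0.21, with the groups meeting at their edges. These means take NCAPH at its deposited 0.08 and 0.25 TPM in the Dox libraries, with effective lengths of 2759 and 1459 bases. The part of that gap in the geometric result was not tested. The sign of the difference thus depended on how the subunits were weighted. The median log2 fold change was -0.38 for the condensin I and -0.16 for the cohesin subunits, against -0.00 for all tested genes. No test was made of these sums, since the members were chosen with results known, and with 2 libraries against 2 an exact two-sided permutation test cannot go below p = 0.333.

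Ratios between partners within a complex were compared as TMM-scaled CPM per kilobase of the mean effective length over the 4 libraries, a scale chosen after the differences in effective length were seen. The NCAPH to SMC2 ratio was 0.0791 and 0.0903 in the Dox libraries, against 0.316 and 0.297 in the DMSO libraries. The NCAPG to SMC2 ratio was 0.192 and 0.210 in the Dox libraries, against 0.619 and 0.605 in the DMSO libraries. The NCAPD2 to SMC2 ratio was 2.29 and 2.49 in the Dox and 3.61 and 3.86 in the DMSO libraries. Each non-SMC transcript was thus scarcer relative to SMC2 in both Dox libraries, and so was SMC4, at 2.95 and 2.72 against 3.61 and 3.79. SMC2 itself was higher in both Dox libraries (log2 fold change 0.26, not called), which lowers every ratio to it. SMC4 overlapped between the groups in CPM. In cohesin, the RAD21 to SMC3 ratio was 3.71 and 4.18 in the Dox and 8.05 and 7.74 in the DMSO libraries. SMC3 had a log2 fold change of 0.11, and SMC1A one of -0.16. The RAD21 to SMC1A ratio was 8.84 and 7.68 in the Dox and 13.3 and 14.3 in the DMSO libraries. STAG1 made up 44.1 and 45.2% of STAG1 plus STAG2 in the Dox and 49.3 and 49.4% in the DMSO libraries. These transcript ratios say nothing of protein levels.

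**Figure D3:**
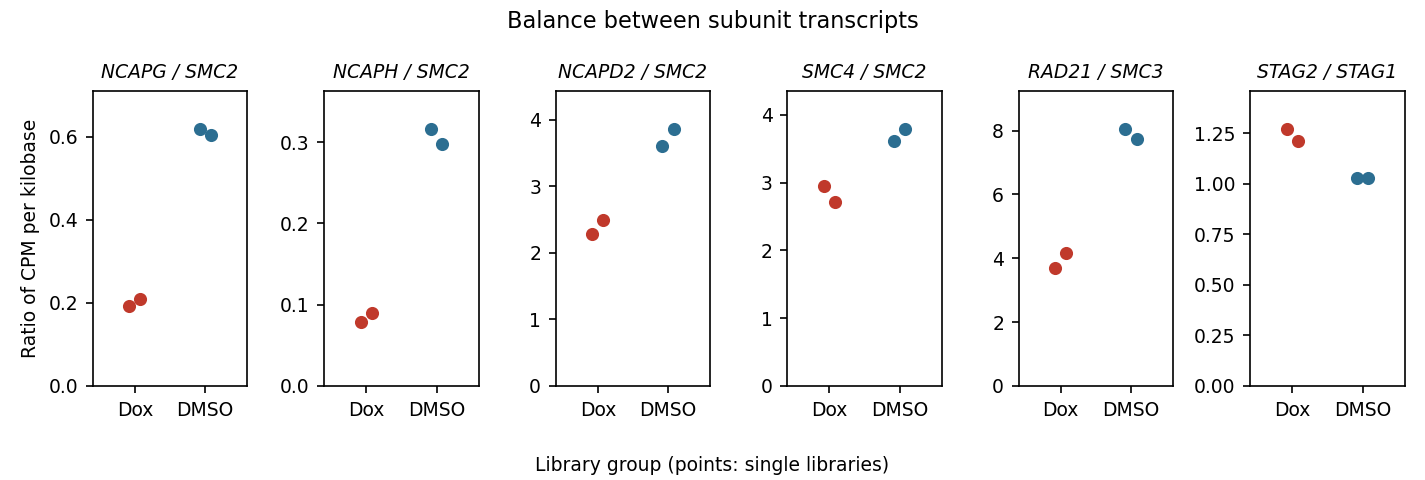
Ratios between pairs of subunit transcripts, as TMM-scaled CPM per kilobase, in single libraries (2 Dox at left, 2 DMSO at right in each panel; each axis starts at 0). The 3 non-SMC to SMC2 ratios, SMC4 to SMC2 and RAD21 to SMC3 are lower in both Dox libraries, and STAG2 to STAG1 is higher, at 1.27 and 1.21 in Dox against 1.03 and 1.03 in DMSO libraries.

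Among 26 companion genes of the SMC complexes, all of them tested, 12 were lower, 2 were higher and 12 did not pass by edgeR (median log2 fold change -0.24), where 13.8% of all tested genes were lower and 16.5% higher. The share of companion genes called higher was thus below that of all genes. Condensin II shares the SMC pair with condensin I and stays in the nucleus through the cell cycle. Of its own 3 subunits, 2 were lower. The HEAT-repeat subunit NCAPG2 was at 8.86 and 8.13 CPM in the Dox and 13.2 and 13.1 CPM in the DMSO libraries (log2 fold change -0.63, SE 0.10, edgeR adjusted p = 0.00563). The kleisin NCAPH2 was at 10.2 and 12.1 CPM in the Dox and 16.9 and 15.9 CPM in the DMSO libraries (log2 fold change -0.55, SE 0.11, edgeR adjusted p = 0.014). Both were lower without overlap, with smaller fold changes than those of NCAPG and NCAPH, although the difference between the complexes was not tested. NCAPD3 did not pass (log2 fold change -0.13, SE 0.09). NCAPH2 was at -0.52 without DMSO replicate 1 and -0.60 without DMSO replicate 2, where it was not called (edgeR adjusted p = 0.0946 and 0.0547).

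Of 10 genes of cohesin loading, acetylation and release, 2 rose, 3 fell and 5 did not pass. The 2 that rose make up a share close to the 16.5% called higher among all tested genes, of which 13.8% were lower. NIPBL, the loader that also drives loop extrusion, rose, with 89.9 and 70.3 CPM in the Dox and 59.0 and 57.8 CPM in the DMSO libraries (log2 fold change 0.46, SE 0.12, edgeR adjusted p = 0.0338). Its partner MAU2 did not pass (-0.10, SE 0.11). The acetyltransferases of SMC3 moved in opposite directions. ESCO1, which acts through interphase, was at 19.2 and 16.4 CPM in the Dox and 13.6 and 12.8 CPM in the DMSO libraries (log2 fold change 0.43, SE 0.11, edgeR adjusted p = 0.0287). ESCO2, which acts in S phase, had 30 and 45 counts in the Dox and 99 and 144 in the DMSO libraries (log2 fold change -1.68, SE 0.25, edgeR adjusted p = 0.00459). The effective lengths of ESCO2 were 1393 and 1508 bases in the Dox and 2651 and 3626 bases in the DMSO libraries. By limma on log2(TPM + 1), rescaled over protein-coding genes, ESCO2 was at -0.39 and did not pass (adjusted p = 0.0862). Without Dox replicate 1 NIPBL was at 0.25 and ESCO1 at 0.30, and without Dox replicate 2 they were at 0.62 and 0.54. Without DMSO replicate 1 NIPBL was at 0.46 and ESCO1 at 0.47, and without DMSO replicate 2 they were at 0.43 and 0.38. The fold changes of NIPBL and ESCO1 thus depended on the Dox library used and stayed close when a DMSO library was left out. Neither gene was called with the spread from the Dox pair alone. CDCA5, or sororin, which protects acetylated cohesin from release, fell with 63 and 58 counts in the Dox and 96 and 126 in the DMSO libraries (log2 fold change -0.86, SE 0.19, edgeR adjusted p = 0.0189). CTCF, the DNA-binding protein at which cohesin halts, was at 22.1 and 23.0 CPM in the Dox and 32.6 and 32.3 CPM in the DMSO libraries (log2 fold change -0.53, SE 0.08, edgeR adjusted p = 0.00458). CDCA5 was at -0.75 without DMSO replicate 2 and was not called there (edgeR adjusted p = 0.125), nor by DESeq2 (-0.86, adjusted p = 0.0596). CTCF kept fold changes of -0.53 without DMSO replicate 1 and -0.54 without DMSO replicate 2, just short of the threshold (edgeR adjusted p = 0.0576 and 0.0602). The release factor WAPL (-0.06, SE 0.07), its partners PDS5A (-0.05, SE 0.08) and PDS5B (0.04, SE 0.14) and the deacetylase HDAC8 (0.06, SE 0.09) did not pass. Without Dox replicate 1, PDS5B was at -0.21, PDS5A at -0.15 and MAU2 at 0.01. Without Dox replicate 2 they were at 0.23, 0.02 and -0.23, so the sign of each depended on the Dox library used.

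Of 6 genes that protect or cut cohesin in mitosis, 4 fell and 2 did not pass, against 13.8% of all tested genes called lower. SGO1, the shugoshin that shields centromeric cohesin, had 13 and 16 counts in the Dox and 41 and 48 in the DMSO libraries (log2 fold change -1.60, SE 0.27, edgeR adjusted p = 0.00725). The mitotic kinase PLK1 fell by 1.23 (SE 0.18), securin PTTG1 fell by 0.63 (SE 0.12) and separase ESPL1 fell by 0.64 (SE 0.19) on the log2 scale. PTTG1 was at -0.67 without DMSO replicate 1 and -0.61 without DMSO replicate 2, where it was not called (edgeR adjusted p = 0.0733 and 0.12). ESPL1 was at -0.76 and -0.52 in the same fits, also not called (edgeR adjusted p = 0.0804 and 0.293), and DESeq2 did not call it (-0.64, adjusted p = 0.153). SGO2 (0.09, SE 0.16) and the kinase HASPIN (-0.65, SE 0.23) did not pass. In the SMC5/6 complex, which acts in DNA repair and replication, 3 of 7 genes fell, against 13.8% of all tested genes. These were NSMCE2 by edgeR with a log2 fold change of -0.56 (SE 0.10), NSMCE4A with -0.55 (SE 0.13) and NSMCE3 with -0.36 (SE 0.09). SMC5 (0.35, SE 0.12), EID3 (0.34, SE 0.12), SMC6 (-0.12, SE 0.09) and NSMCE1 (-0.12, SE 0.11) did not pass. SMC5 lay near the threshold (edgeR adjusted p = 0.0645). It was called higher by DESeq2 (0.36, adjusted p = 0.0331), with no filter on low counts (edgeR adjusted p = 0.0154), with the GC offset (0.24, edgeR adjusted p = 0.00523) and with the replicate block (0.34, edgeR adjusted p = 0.017). EID3 was higher in Dox without overlap (edgeR adjusted p = 0.0771) and was called higher with the GC offset (0.36, edgeR adjusted p = 0.0157). SMC6 was called lower with the GC offset (-0.18, edgeR adjusted p = 0.0331), and NSMCE3 was not called by DESeq2 (-0.35, adjusted p = 0.0754). Without DMSO replicate 1 or DMSO replicate 2, 0 of the SMC5/6 genes passed in either case, and 2 and 2 of the cohesion protection genes, 2 and 1 of the loading genes and 1 and 1 of the condensin II genes were lower. Without Dox replicate 1 or Dox replicate 2, 4 and 4 of the SMC5/6 genes were lower and 2 and 2 higher.

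**Figure D4:**
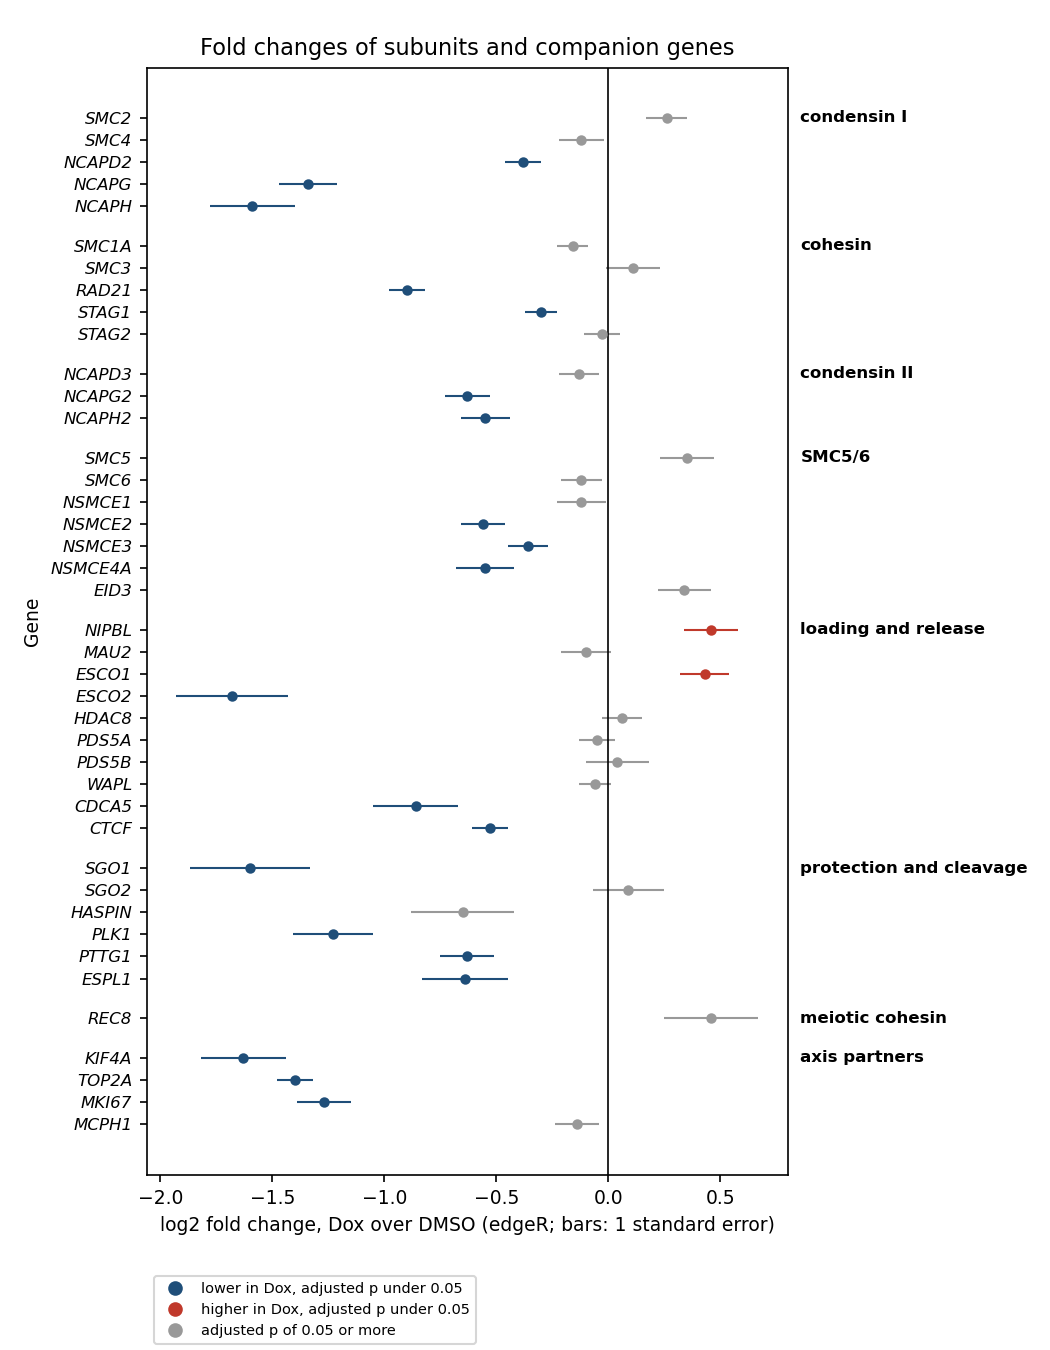
edgeR log2 fold changes (Dox over DMSO, bars 1 standard error) of the 10 subunits and of the companion genes tested, by group, coloured by the call at an adjusted p under 0.05. Of the 10 subunits, 5 are lower and none is higher, with NCAPH (-1.59) and NCAPG (-1.34) farthest left, and NIPBL (0.46) and ESCO1 (0.43) are the companion genes that are higher.

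The genes that act beside condensin on the mitotic chromosome axis were lower by edgeR for 3 of 4 listed, against 13.8% of all tested genes. KIF4A, a kinesin that carries condensin I, had a log2 fold change of -1.63 (SE 0.19), TOP2A, the topoisomerase of dividing cells, -1.40 (SE 0.08) and the proliferation marker MKI67 -1.27 (SE 0.12), while MCPH1, a regulator of condensin II, did not pass (-0.14, SE 0.10). MCPH1 was at -0.25 without Dox replicate 1, which was called with the spread from the DMSO pair alone (edgeR adjusted p = 0.00104), and at -0.05 without Dox replicate 2 (0.572). MKI67 was at 9.77 and 8.33 CPM in the Dox and 22.9 and 20.8 CPM in the DMSO libraries, and its part in the falls of NCAPG and NCAPH was not tested.

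The sources do not say whether the counting used strand, and several members overlap a gene on the other strand, so reads may be split between them. UTP23, which overlaps RAD21, had 866 and 783 counts in the Dox and 985 and 1085 in the DMSO libraries, against 5681 and 5378 Dox and 9684 and 11098 DMSO counts for RAD21. LCORL, which overlaps NCAPG, had 501 and 464 against 503 and 530 counts, more than NCAPG itself. MRPL51, which overlaps NCAPD2, had 1507 and 1632 counts in the Dox and 1781 and 2083 in the DMSO libraries. NCAPD2 itself had fewer, at 1090 and 1152 against 1376 and 1565 counts. SMC4 overlaps IFT80, with 1899 and 1767 counts in the Dox and 1959 and 2151 in the DMSO libraries. Processed pseudogenes named after NCAPG and NCAPD2 held at most 13 counts in any library.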

How the data were processed

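Expected counts, TPM, FPKM and effective lengths were deposited per library as RSEM gene tables, per the file headers. The submitters' processing notes name cutadapt, STAR, Picard, RSEM and hg38; the sources used here give no versions, annotation release or strand setting. The expected counts are estimated reads per gene, named so per the file headers, and were rounded. The deposited TPM values are scaled by effective length and to a fixed total per library, and the deposited FPKM values were not used. Lengths are given here in bases, a unit other than those above.

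Genes were kept by filterByExpr (minimum count 10, minimum total 15; 16749 genes), scaled by TMM and tested by edgeR's quasi-likelihood test with group as the only term and Benjamini-Hochberg adjustment over all genes (threshold 0.05). A standard error is the log2 fold change over the square root of F. CPM are TMM-scaled. Coordinates are 1-based from GENCODE 29 (99.5% of identifiers matched). Alternatives were other scalings, filters, tests and TPM scales, GC offsets (lowess of log2 CPM deviations), a replicate block and leaving out each library. The members, gene lists, motifs and named genes (members, listed companions and nearest profiles) were chosen with earlier results of these data known. Software was Python 3.11.15 and R 4.3.3 with DESeq2 1.42.0, limma 3.58.1 and edgeR 4.0.16, and the edgeR fit was tested on simulated data.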

Additional observations from a re-analysis of the deposited data

How the results depend on the processing

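The signs of 8 members held under all 15 alternatives, although SMC4, at -0.00 without Dox replicate 2, showed no difference there. STAG2 was 0.13 and 0.15 with limma on log2(TPM + 1) and log2(TPM + 0.1). It was 0.02 with TPM rescaled over protein-coding genes and 0.04 without Dox replicate 2. SMC3, at 0.27 without Dox replicate 2, turned to -0.08 when Dox replicate 1 was the library left out. The cause was not tested. RAD21, NCAPG and NCAPH lost their calls under 2 alternatives each, both of them TPM as deposited.

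With limma on log2(TPM + 1) and log2(TPM + 0.1), 596 and 637 genes were higher and 198 and 198 lower, 0 and 0 condensin I and 0 and 0 cohesin subunits were lower, and 0 and 0 companion genes were higher and 1 and 1 lower; the median of all genes was 0.06 and 0.13. It was 0.12 with no filter on low counts. With TPM rescaled over protein-coding genes (chosen after seeing the data), 1 cohesin subunit was lower and 0 companion genes were higher. With GC offsets, alone and with the replicate block, 3875 and 3835 genes were lower, 1 and 1 condensin I subunit (SMC2) was higher, SMC4 was lower, and 4 and 4 companion genes were higher. Leaving out 1 library gave 1368 to 4654 higher and 1000 to 5017 lower genes, 0 to 1 condensin I subunits higher and 2 to 4 lower, 0 to 1 cohesin subunits higher and 1 to 4 lower, and 0 to 5 companion genes higher and 4 to 15 lower.

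The condensin to cohesin difference in log2 ratio was 0.24 from CPM, 0.26 from CPM per kilobase of mean effective length, -0.21 from geometric means and -0.12 without RAD21, the per-kilobase scale and the removal of RAD21 being chosen after seeing the data.

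Nothing in the labels says that a replicate number marks a shared culture or day, so the numbers were not taken as pairs. Deviations of same-numbered libraries correlated at 0.0383 over 16749 genes. With the replicate block, 2972 genes were higher and 2511 lower, and the counts of called condensin I (3 lower) and cohesin (2 lower) subunits did not move. NCAPH and the genes with under 100 counts are limited by depth.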

Other observations

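Of the germline forms of cohesin subunits, SMC1B, RAD21L1 and STAG3 were near the detection limit. SMC1B had 1 and 0 counts in the Dox and 0 and 0 in the DMSO libraries, RAD21L1 had 15 and 6 against 3 and 3, and STAG3 had 16 and 6 against 4 and 9, and these did not pass the filter on low counts. REC8, the meiotic kleisin, had 67 and 77 counts in the Dox and 56 and 49 in the DMSO libraries, and by edgeR its log2 fold change was 0.46 with SE 0.21 (adjusted p = 0.159).

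Some genes that overlap the members were picked out with their values in view. The small RNA SCARNA10, annotated inside NCAPD2 on the same strand, had 7656 and 4330 counts in the Dox and 11101 and 13335 in the DMSO libraries, and by edgeR its log2 fold change was -1.0 with SE 0.27 (adjusted p = 0.0329). TRIM59, which overlaps SMC4 on the opposite strand, was at 18.3 and 14.3 CPM in the Dox and 30.6 and 30.2 CPM in the DMSO libraries, a log2 fold change of -0.90 by edgeR with SE 0.13 (adjusted p = 0.00394), whereas SMC4 did not pass.

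By Euclidean distance of centred log2 CPM over 4 libraries, the genes nearest to the mean condensin I profile were DESI2 (0.0226), PPP1R15B (0.0257) and LINC00662 (0.039), with log2 fold changes of -0.61, -0.61 and -0.63, and those nearest to the mean cohesin profile were GABPB1 (0.0132), GTPBP8 (0.0178) and MFAP3 (0.018), at -0.24, -0.26 and -0.27. A mean profile averages members that differ, and these distances are a description.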
